A study of Homo sapiens with 4 samples.

Results

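The 10 genes described here encode enzymes and core subunits that write, keep or remove DNA methylation (DNMT1, DNMT3A, DNMT3B, UHRF1, TET1, TET2 and TET3) or that form the core of Polycomb repressive complex 2, PRC2 (EZH2, SUZ12 and EED). They were taken by gene symbol, as a set proposed with earlier results of these data known, from a table of 58735 genes, and all 10 were in it. RNA was sequenced from cells labelled HFL1, the name of an established human lung fibroblast line. There were 2 WT libraries and 2 libraries of calumenin knockout cells (KO). Calumenin, the product of CALU, binds calcium in the endoplasmic reticulum and along the secretory route, and the study asked how its loss affects senescence and fibrosis signalling in fibroblasts. No treatment, time point or second allele is given for either group. How the KO cells were made, and whether they are 1 clone, is not given in the sources used here. Whether the 2 libraries of a group are separate cultures is not stated, so each p-value reflects the spread between libraries alone, and that spread may be technical.

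DNA methylation in mammals sits mainly on the cytosine of CpG pairs. DNMT3A and DNMT3B set it on unmethylated DNA, and DNMT1 copies it onto the new strand at each replication, guided there by UHRF1, which binds hemimethylated CpG. TET enzymes oxidise methylcytosine and so start its removal. PRC2 places methyl groups on lysine 27 of histone H3, a mark of repressed developmental genes; EZH2 or its paralogue EZH1 is the catalytic subunit, and EED and SUZ12 are needed for its activity. EZH2, DNMT1 and UHRF1 are known as genes of dividing cells that respond to E2F factors, and EZH2 is known to fall in senescent fibroblasts.

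Values are FPKM, fragments per kilobase of gene, scaled to sequencing depth, as the authors deposited them. Reads recovered from these values numbered 16173899 to 17715774 per library, and a level of 3 reads was 0.0405 FPKM or less for each of the 10 genes, which covers counting error only. CALU stood at 87.7 and 81.8 FPKM in WT replicates 1 and 2, and at 6.59 and 5.95 FPKM in KO replicates 1 and 2, 13.5-fold lower by mean. The cells labelled HFL1 did not show a full fibroblast profile in either group, and the identity of the line was not tested. Of 12 fibroblast markers, 7 were below 1 FPKM in all 4 libraries and COL1A2 was at 0, while the summed level of 10 epithelial markers was 710.9 to 818.3 FPKM in WT and 1532 to 1762 FPKM in KO. KRT8 and KRT18 made up most of that sum. Without them it was 35.5 and 36.9 FPKM in WT and 91.0 and 95.3 FPKM in KO. Of this list 4 genes were called higher and 2 lower (KRT15 and CLDN4). KRT15 and CLDN4 were below 1 FPKM in both KO libraries and entered the test through WT alone. Fibroblast markers summed to 1023 to 1412 FPKM in WT and 567.3 to 820.1 FPKM in KO, mostly S100A4, which was not called. Without S100A4 the sum was 90.4 and 59.9 FPKM in WT and 117.8 and 97.1 FPKM in KO, with COL1A1 called higher and TWIST2 lower. COL1A1 was below 1 FPKM in both WT libraries and entered the test through KO alone. All 6 endothelial markers and 5 of 6 leukocyte markers were below 1 FPKM throughout. The other leukocyte marker, CD14, had 19.4 and 16.85 FPKM in WT and 5.84 and 6.41 FPKM in KO. It was called lower (log2 change -1.42, adjusted p = 0.00457 in limma). In bulk RNA, fewer cells of a type and less RNA per cell cannot be told apart, and the part of cell type in the results below was not tested.

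Promoters are shown for the members in which a sequence match of the E2F type lay near a RefSeq start site. Such matches were sought because EZH2, DNMT1 and UHRF1 are known as E2F-responsive and the KO libraries differed in genes of the cell cycle. SUZ12 is shown for its match alone. RefSeq windows on GRCh38.p14, from 250 bases before to 50 after the start, were found for 10 of 10 members (22 windows). The letters searched on both strands were TTTCGCGC, TTTGGCGC, TTTCCCGC and TTTGCCGC. A match lay in windows of 4 members, DNMT1, UHRF1, EZH2 and SUZ12, against 3.97% of all genes with a window and 3.3% of all windows. These shares do not compare like windows or like numbers of windows. The 10 members had 22 windows, and the 27167 genes with a window had 34943. Each searched sequence contains CpG, and the member windows with a match held 30 to 46 CpG pairs, against a median of 14 over all windows. Each run below is read 5′ to 3′ along the gene's strand, with the match in capitals; GCGGGAAA and GCGCGAAA are matches read on the opposite strand.
EZH2, chr7:148884273-148884372, minus strand: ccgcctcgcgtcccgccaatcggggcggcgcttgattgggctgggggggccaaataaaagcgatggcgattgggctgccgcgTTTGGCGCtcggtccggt
UHRF1, first start site, chr19:4909401-4909500, plus strand: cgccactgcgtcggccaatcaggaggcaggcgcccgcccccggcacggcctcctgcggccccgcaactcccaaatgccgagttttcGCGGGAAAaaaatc
UHRF1, second start site, chr19:4909938-4910037, plus strand: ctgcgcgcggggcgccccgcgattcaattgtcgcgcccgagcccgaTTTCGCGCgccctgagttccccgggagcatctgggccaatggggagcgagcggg
DNMT1, chr19:10194938-10195037, minus strand: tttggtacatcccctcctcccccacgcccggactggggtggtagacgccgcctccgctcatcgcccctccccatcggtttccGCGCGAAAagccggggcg
SUZ12, chr17:31936772-31936871, plus strand: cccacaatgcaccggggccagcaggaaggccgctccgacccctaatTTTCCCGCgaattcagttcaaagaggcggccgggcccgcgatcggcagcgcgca
The match in EZH2 covered bases 2 to 9 after the start site, and that in DNMT1 ran from base -2 to base 6. In UHRF1 the matches lay at -14 to -7 before the first start site and at -160 to -153 before the second. SUZ12 had its match farther out, at -189 to -182. A further EZH2 window and a further UHRF1 window, with start sites at chr7:148883485 and chr19:4910367, held no match. The same EZH2 window held 4 copies of CCAAT, a pentamer found in 34.6% of all windows. DNMT3B had no E2F match in its 1 window, which held 3 CpG pairs against a median of 14 over all windows and lay 17467 bases inside the annotated gene start. The DNMT1 start site lay 36333 bases inside its gene start, and the UHRF1 start sites with a match 6421 and 7064 bases. A match is a description of these letters and not a measured binding site.

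In KO the methyltransferases DNMT1 and DNMT3B, the DNMT1 guide UHRF1 and the PRC2 catalytic subunit EZH2 were higher, by 2.005-fold to 4.39-fold in mean FPKM. DNMT3A, TET2, TET3, SUZ12 and EED did not pass the test, and TET1 was too low to be tested. Tests used limma on log2(FPKM + 1) over the 14100 genes with at least 1 FPKM in at least 2 libraries, with calls made below an adjusted p of 0.05 (Benjamini-Hochberg). Of the 9 members tested, 4 were called higher, against 12.1% of all tested genes. None was called lower in KO, against 11.1% of all tested genes, with 0 at an unadjusted p under 0.05 and 0 by limma's voom on recovered reads. Both KO libraries lay above both WT libraries in 7 of the 9 (34.4% of all tested genes) and below both in 1, TET3 (31.3% of all tested genes); in SUZ12 the groups overlapped. The median change of the 9 was 0.26 on the log2 scale, beside 0.03 over all genes tested. With no filter on low values, which adds many genes at or near 0 to the fit, 1 of the 4 calls was kept, that of EZH2.

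**Figure D1:**
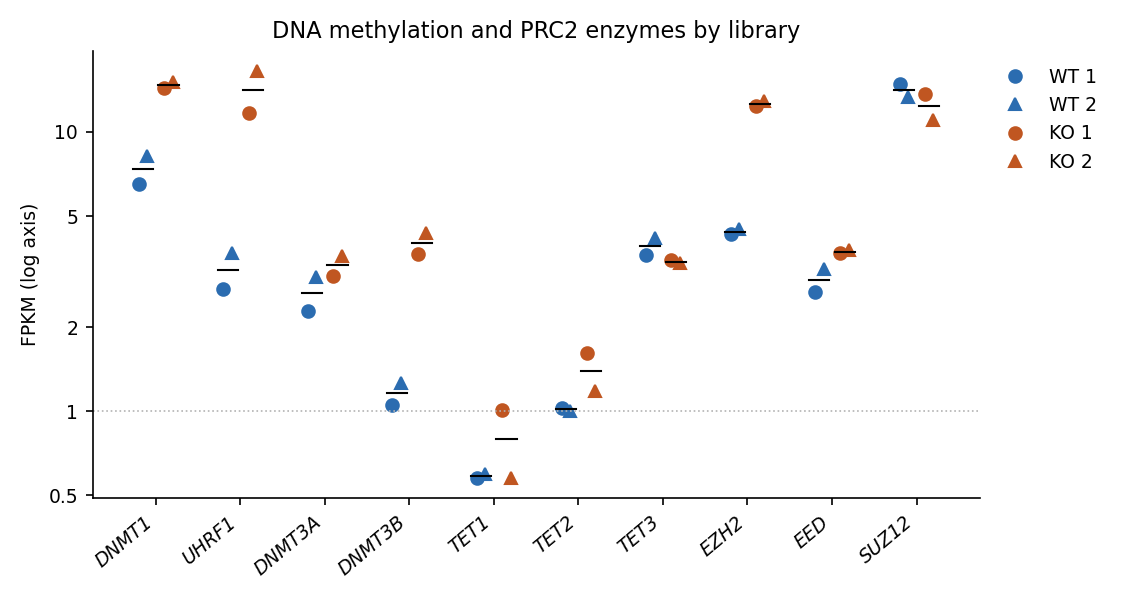
FPKM of each of the 10 genes (log axis) in WT replicates 1 and 2 (blue circle and triangle) and KO replicates 1 and 2 (orange circle and triangle), with black lines at the group means and a dotted line at 1 FPKM. The KO points stand well above the WT points for DNMT1, UHRF1, DNMT3B and EZH2, and lie close to or among them for the others.

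By mean level in WT, SUZ12 came first at 14.1 FPKM, followed by DNMT1 at 7.34, EZH2 at 4.40, TET3 at 3.91, UHRF1 at 3.21, EED at 2.96 and DNMT3A at 2.65 FPKM. DNMT3B, TET2 and TET1 were lowest, at 1.16, 1.02 and 0.588 FPKM. Among neighbours in this order, the WT libraries of TET3 and UHRF1, of UHRF1 and EED, and of EED and DNMT3A overlapped. In KO the top of the order held DNMT1 (14.7 FPKM), UHRF1 (14.1), EZH2 (12.6) and SUZ12 (12.4), whose libraries overlapped from one to the next. DNMT3B stood at 4.01 FPKM in KO and had passed TET3 and DNMT3A, which it was below in WT. By mean it had also passed EED, at 3.73 FPKM in KO, but the KO libraries of DNMT3B and EED overlapped.

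Maintenance methylation was represented by DNMT1 and UHRF1, both higher in KO. DNMT1 (ENSG00000130816, chr19:10133345-10231286, minus strand) had 6.49 and 8.20 FPKM in WT and 14.4 and 15.05 FPKM in KO. Its groups did not overlap, and the WT libraries lay farther apart than the KO libraries. The mean went from 7.34 ± 1.21 to 14.7 ± 0.463 FPKM (SD, n = 2 each), a log2 change of 0.92 (SE 0.15, 95% interval 0.54 to 1.31, adjusted p = 0.0144). The call rested in part on WT replicate 1: without it the change was 0.77 with an adjusted p of 0.115, and with no filter on low values the adjusted p was 0.0643. S1PR2, a sphingosine 1-phosphate receptor gene on the same strand, overlaps DNMT1 in the annotation and was at 0.888 to 1.31 FPKM in all 4 libraries; how reads in the shared stretch were assigned is not given in the sources used here.

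UHRF1 (ENSG00000276043, chr19:4903080-4962154, plus strand) had the largest change among the members. It stood at 2.75 and 3.68 FPKM in WT and at 11.7 and 16.5 FPKM in KO, from 258 and 310 reads to 1053 and 1392 reads. KO replicate 2 was the higher of the KO pair, and both were well above WT. The mean rose 4.39-fold to 14.1 ± 3.41 FPKM (SD, n = 2), a log2 change of 1.83 (SE 0.21, 95% interval 1.31 to 2.36, adjusted p = 0.00593), and 0.922% of all tested genes rose more. With no filter on low values its adjusted p was 0.0542. The ratio of UHRF1 to DNMT1 was 0.423 and 0.449 in WT and 0.812 and 1.10 in KO. The exact two-sided permutation p of this ratio was 0.333, the smallest that 2 libraries against 2 allow.

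Of 9 genes listed as partners of maintenance methylation, 8 were tested, 5 were higher in KO and 0 were lower (0 at an unadjusted p under 0.05, 0 by voom). Their median log2 change was 1.31, and the shares over all tested genes were 12.1% higher and 11.1% lower. PCLAF, a PCNA-binding protein that takes part in bringing DNMT1 to replicated DNA, went from 2.01 and 2.60 FPKM in WT to 13.7 and 10.8 FPKM in KO, 5.32-fold higher (adjusted p = 0.0039). LIG1, the ligase that joins Okazaki fragments and binds UHRF1, went from 2.99 and 3.92 FPKM to 10.6 and 12.6 FPKM, 3.35-fold higher (adjusted p = 0.00574). HELLS, a chromatin remodeller needed for normal DNA methylation, was 2.94-fold higher (adjusted p = 0.00994), and its activator CDCA7 was 2.90-fold higher (adjusted p = 0.00472). CDCA7L, the paralogue of CDCA7, was 3.40-fold higher (adjusted p = 0.00436). The HELLS call was lost without WT replicate 1 (adjusted p = 0.0515) and with no filter (0.0619), and the LIG1 call with no filter (0.052). PCNA, the sliding clamp of replication forks, was abundant in all libraries, at 183.0 and 169.4 FPKM in WT and 196.5 and 180.8 FPKM in KO, and its groups overlapped (log2 change 0.10, adjusted p = 0.694). USP7, which deubiquitinates DNMT1 and UHRF1, and the paralogue UHRF2 did not pass the test, and DNMT3L was at 0.0589 FPKM in 1 WT library and at 0 in the others. Against PCNA as denominator, the UHRF1 ratio was 0.0150 and 0.0217 in WT and 0.0595 and 0.0913 in KO, and that of DNMT1 was 0.0354 and 0.0484 in WT and 0.0732 and 0.0832 in KO.

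Of the de novo methyltransferases, DNMT3B was called higher in KO and DNMT3A was not called. DNMT3B (ENSG00000088305, chr20:32762385-32809356, plus strand) had 1.05 and 1.26 FPKM in WT and 3.65 and 4.36 FPKM in KO, from 89 and 96 reads to 296 and 331 reads. Its groups were far apart relative to their spread. The mean rose 3.46-fold to 4.01 ± 0.504 FPKM (SD, n = 2), a log2 change of 1.21 (SE 0.16, 95% interval 0.82 to 1.60, adjusted p = 0.00762; 0.0571 with no filter). DNMT3A (ENSG00000119772, chr2:25227855-25342590, minus strand) had 2.29 and 3.02 FPKM in WT and 3.06 and 3.60 FPKM in KO. WT replicate 2 and KO replicate 1 were nearly level. Its log2 change was 0.25 (SE 0.17, 95% interval -0.16 to 0.66, adjusted p = 0.321), an interval that leaves room for no change and for a modest rise. DNMT3B was the lower of the pair in WT, at 0.459 and 0.420 times the level of DNMT3A, and the higher in KO, at 1.19 and 1.21 times. The test of this difference is the change of the log2 ratio, 0.96, for which an exact two-sided permutation test gave p = 0.333, again the smallest possible, so a difference between the 2 genes was not shown by that test.

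The TET dioxygenases showed no called change. TET3 (ENSG00000187605, chr2:73986404-74108176, plus strand), the most abundant, had 3.64 and 4.18 FPKM in WT and 3.48 and 3.38 FPKM in KO. Both KO libraries were below both WT libraries, by a small margin (log2 change -0.14, SE 0.14, 95% interval -0.49 to 0.20, adjusted p = 0.487). TET2 (ENSG00000168769, chr4:105145875-105279816, plus strand) was near 1 FPKM in WT, at 1.031 and 1.004, and at 1.61 and 1.18 FPKM in KO. Its log2 change was 0.24 (SE 0.17, 95% interval -0.19 to 0.67, adjusted p = 0.356), and KO replicate 1 was the highest library. An antisense gene, TET2-AS1, overlaps TET2 and was at 0.341 FPKM or less in all 4 libraries; whether counting used strand is not given in the sources used here. TET1 (ENSG00000138336, chr10:68560656-68694482, plus strand) had 0.578, 0.598, 1.01 and 0.578 FPKM in WT replicates 1 and 2 and KO replicates 1 and 2, from 88 to 165 reads. Only KO replicate 1 stood out, and the gene was not tested. The ratio of TET3 to TET2 was 3.53 and 4.16 in WT and 2.16 and 2.87 in KO.

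**Figure D2:**
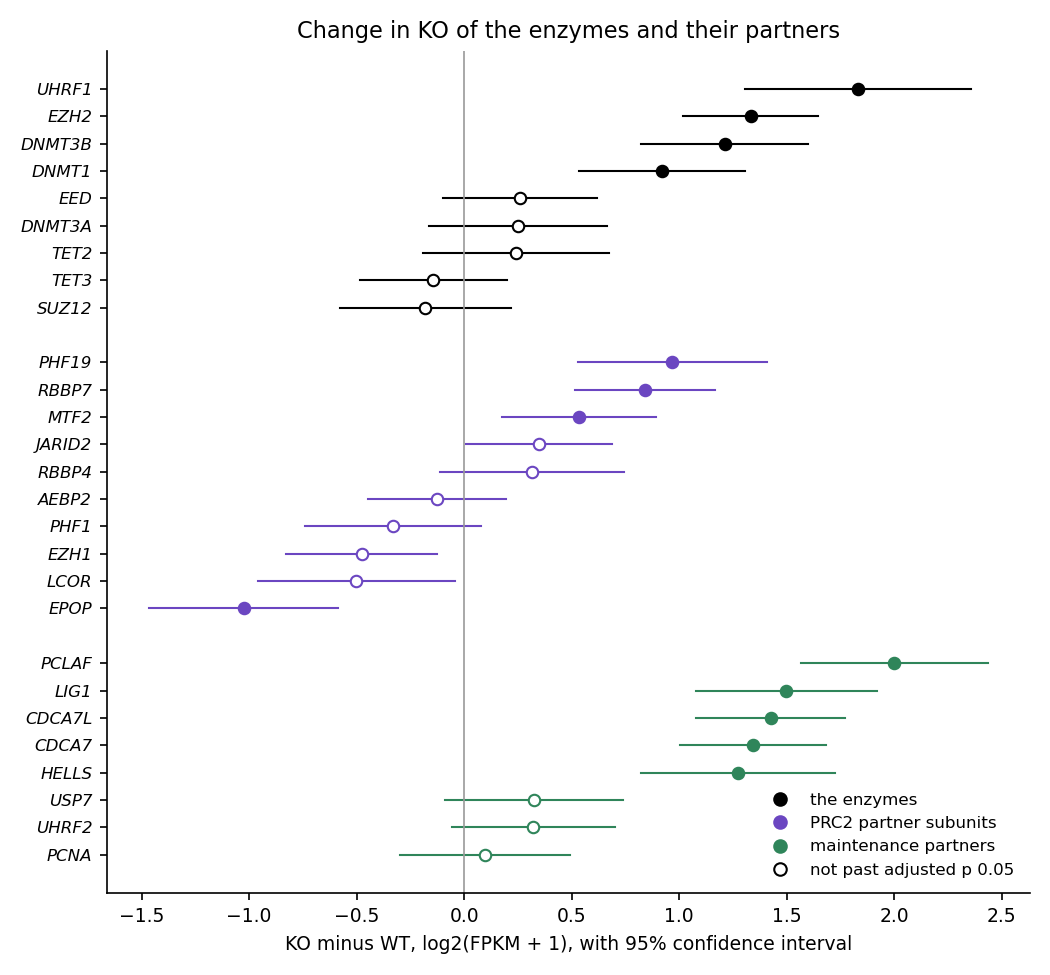
Change of KO over WT on the log2(FPKM + 1) scale for the 9 tested enzymes (black), PRC2 partner subunits (purple) and partners of maintenance methylation (green), with 95% confidence intervals from limma; filled points passed an adjusted p of 0.05. UHRF1, EZH2, DNMT3B and DNMT1 lie to the right of the other enzymes, with intervals above 0.

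Downstream and around these enzymes, changes went in both directions. Of 13 tested genes of active demethylation and base excision repair, 4 were higher, 2 were lower and 7 were not called (median log2 change 0.30). Over all tested genes 12.1% were higher and 11.1% were lower, with a median of 0.03. XRCC1, a scaffold of base excision repair, went from 4.37 and 5.17 FPKM in WT to 10.96 and 13.4 FPKM in KO (log2 change 1.19, adjusted p = 0.00847). IDH2, which makes the 2-oxoglutarate that TET enzymes use, was 1.78-fold higher (adjusted p = 0.0151). CXXC4, a CpG-binding protein that interacts with TET2, had 0.282 and 0.598 FPKM in WT and 2.03 and 1.71 FPKM in KO. It was 4.25-fold higher (adjusted p = 0.0202), and 6.62-fold without WT replicate 2. CXXC4 passed the filter on low values through its KO libraries alone, so its call is not independent of that filter. GADD45A, a p53 and stress target linked to demethylation, had 23.9 and 27.1 FPKM in WT and 7.37 and 11.2 FPKM in KO (log2 change -1.39, adjusted p = 0.0117). PARP1 was higher (1.70-fold, adjusted p = 0.0164) and the glycosylase SMUG1 lower (1.77-fold, adjusted p = 0.0185); both were named after their values were seen. Without WT replicate 1 all of these calls but that of GADD45A were lost (adjusted p = 0.0541 to 0.15). Those of IDH2, PARP1 and SMUG1 were also lost without WT replicate 2 (0.106 to 0.139), and that of CXXC4 without KO replicate 1 (0.0685). All 6 were lost with no filter (0.054 to 0.0918).

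Of 9 tested genes listed with the methyl-CpG readers, 2 were higher and 3 were lower, with a median log2 change of -0.04. Over all tested genes 12.1% were higher and 11.1% were lower. Whether each listed protein binds methylated CpG was not examined. ZBTB33 (Kaiso) and the glycosylase MBD4 were higher, by 1.77-fold and 1.59-fold (adjusted p = 0.0245 and 0.0309). ZBTB4, the NuRD subunit MBD3 and MBD6 were lower, by 1.68-fold, 1.57-fold and 1.56-fold (adjusted p = 0.0294, 0.0263 and 0.0283); MBD6 was named after its values were seen. Each of these 5 calls was lost when WT replicate 1 (adjusted p = 0.111 to 0.193), WT replicate 2 (0.156 to 0.209) or KO replicate 1 (0.0604 to 0.074) was left out, and with no filter (0.0646 to 0.088). Of 9 genes listed with the cycle that makes S-adenosylmethionine, the methyl donor, AHCYL1 alone was called, 2.24-fold higher (adjusted p = 0.00647). Over all tested genes 12.1% were called higher. The AHCYL1 call was lost without WT replicate 1, where its log2 change was 1.07. AHCYL1 is named for its likeness to AHCY, and its part in the cycle was not examined. AHCY, which clears the product of methyl transfer, was 1.55-fold higher in mean FPKM with an adjusted p of 0.054, and passed with the filter of 1 FPKM in all 4 libraries (0.0439), voom (0.0202), a replicate block (0.0071) and a robust prior (0.0489). None of the 9 was called lower by limma on FPKM, with 2 lower at an unadjusted p under 0.05 and 2 by voom. MAT2A, the synthetase of the methyl donor, had 110.2 and 90.4 FPKM in WT and 73.7 and 68.8 FPKM in KO (adjusted p = 0.0905; 0.0216 with the replicate block and 0.0451 by voom). The number of the 9 called lower was 1 with the filter on all 4 libraries, with total-read scaling and with quantile normalization, and 2 with the replicate block.

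Among the core subunits of PRC2, EZH2 was higher in KO, and EED and SUZ12 were not called. EZH2 (ENSG00000106462, chr7:148807383-148884321, minus strand) had 4.30 and 4.49 FPKM in WT and 12.3 and 12.8 FPKM in KO, from 355 and 333 reads to 978 and 952 reads. Libraries of each group were close together and the groups far apart. The mean rose 2.87-fold to 12.6 ± 0.354 FPKM (SD, n = 2), a log2 change of 1.33 (SE 0.13, 95% interval 1.02 to 1.65, adjusted p = 0.00433). EZH2 was the 1 member called under all 13 alternative settings, with a highest adjusted p of 0.0475.

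EED (ENSG00000074266, chr11:86244544-86278813, plus strand), which binds the methylated histone tail, had 2.68 and 3.23 FPKM in WT and 3.69 and 3.77 FPKM in KO. Both KO libraries were above both WT libraries, with a log2 change of 0.26 (SE 0.14, 95% interval -0.10 to 0.62, adjusted p = 0.236). SUZ12 (ENSG00000178691, chr17:31937018-32001045, plus strand), the scaffold of the complex, had 14.9 and 13.3 FPKM in WT and 13.7 and 11.03 FPKM in KO. Its groups overlapped, and the log2 change was -0.18 (SE 0.16, 95% interval -0.58 to 0.22, adjusted p = 0.452). A transcribed pseudogene, SUZ12P1, had 2.52 and 2.78 FPKM in WT and 3.73 and 3.91 FPKM in KO, so how reads were divided between it and SUZ12 is uncertain. SUZ12, with an E2F-type match in its promoter window, was not called. DNMT3B was called higher and had no match in its 1 window, which lay 17467 bases inside its gene start. The sequence at that gene start was not searched. Over the 4 called members a match was present in DNMT1, UHRF1 and EZH2, though not in every window of UHRF1 or EZH2.

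Within each library, EZH2 changed its place beside its partners. EZH2 was below EZH1, the catalytic paralogue typical of non-dividing cells, in WT, with ratios of 0.663 and 0.740. In KO it was above, with ratios of 3.17 and 2.80. EZH1 itself had 6.49 and 6.07 FPKM in WT and 3.89 and 4.59 FPKM in KO, a log2 change of -0.48 that did not pass the test (adjusted p = 0.0622), though it did with voom (0.0361), with quantile normalization (0.0498) and with a replicate block (0.0293). The ratio of EZH2 to SUZ12 went from 0.289 and 0.337 to 0.901 and 1.16, and that of EZH2 to EED from 1.61 and 1.39 to 3.34 and 3.41. Ratios of transcripts do not measure the make-up of the complex. In all, 10 ratios were compared, and each had an exact two-sided permutation p of 0.333, the smallest possible here. The ratios share genes, mainly EZH2, DNMT1 and UHRF1, and are not separate results.

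**Figure D3:**
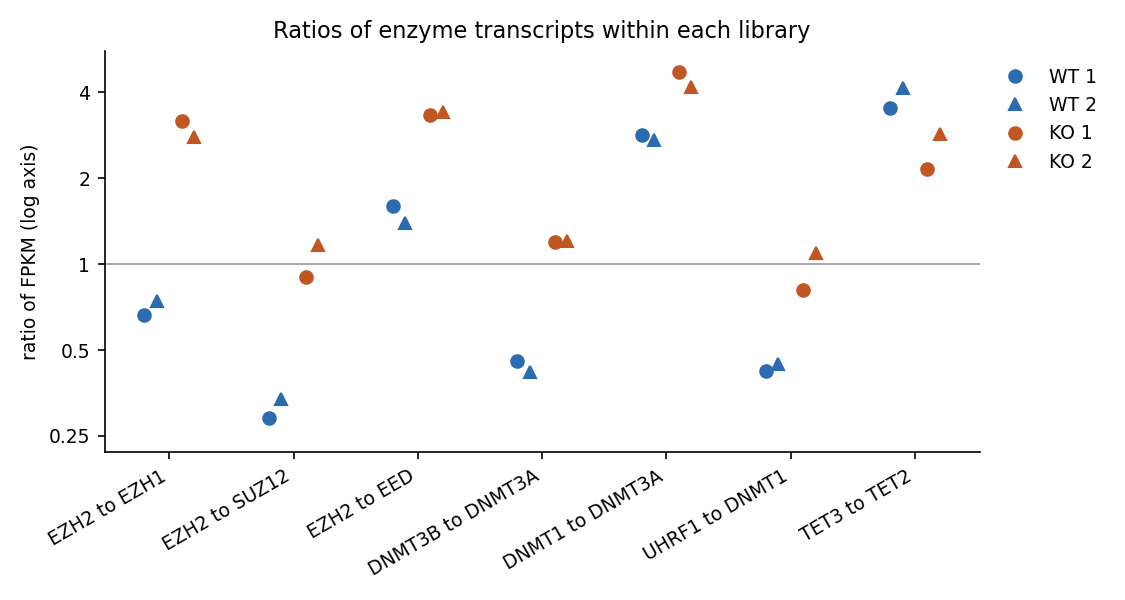
Ratio of FPKM between pairs of enzyme genes within each library (log axis), for WT replicates 1 and 2 (blue circle and triangle) and KO replicates 1 and 2 (orange circle and triangle); the grey line marks equal levels. EZH2 to EZH1 and DNMT3B to DNMT3A cross the line between the groups, and TET3 to TET2 is the pair shown with lower ratios in KO.

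Of the 10 PRC2 partner genes tested, 3 were higher in KO, 1 was lower and 6 were not called. Their median log2 change was 0.10, and the shares over all tested genes were 12.1% higher and 11.1% lower. EZHIP had no row under that symbol. By voom the counts were 3 higher and 3 lower, and at an unadjusted p under 0.05 they were 4 and 3. PHF19, a Polycomb-like protein that brings PRC2 to its sites, had 3.08 and 4.39 FPKM in WT and 7.86 and 8.50 FPKM in KO (log2 change 0.97, adjusted p = 0.0177). RBBP7, a histone-binding subunit that PRC2 shares with other complexes, had 17.0 and 16.4 FPKM in WT and 29.8 and 31.7 FPKM in KO (log2 change 0.84, adjusted p = 0.0123). MTF2, another Polycomb-like protein, was 1.62-fold higher (adjusted p = 0.0492). EPOP, an accessory subunit that links PRC2 to Elongin, had 10.1 and 12.6 FPKM in WT and 4.45 and 5.71 FPKM in KO (log2 change -1.03, adjusted p = 0.0152). The 4 calls depended on single libraries. Without WT replicate 1 those of PHF19, RBBP7 and MTF2 were lost (adjusted p = 0.115, 0.0927 and 0.266), and without WT replicate 2 those of RBBP7, MTF2 and EPOP (0.0965, 0.203 and 0.0875). Without KO replicate 2 those of PHF19 and MTF2 were lost (0.0518 and 0.057), without KO replicate 1 that of MTF2 (0.136), and all 4 with no filter (0.0518 to 0.13). The MTF2 call was also lost with total-read scaling (0.0606) and quantile normalization (0.0538).

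PRC1, the complex that ubiquitinates histone H2A and reads the PRC2 mark, was represented by 17 tested genes, its opposing deubiquitinase included. Of these 0 were called higher (0 at an unadjusted p under 0.05, 0 by voom) and 1 lower (4 at an unadjusted p, 2 by voom), against 12.1% and 11.1% of all tested genes, and the median log2 change was -0.05. PHC2, a subunit that polymerises PRC1, had 21.5 and 21.3 FPKM in WT and 12.1 and 14.1 FPKM in KO (log2 change -0.67, adjusted p = 0.0251). PCGF2, a PRC1 subunit, missed the threshold (log2 change -0.45, adjusted p = 0.0575) and passed it with total-read scaling (0.0472), quantile normalization (0.0498), voom (0.0488) and a replicate block (0.0217). RING1, a catalytic subunit, also missed it (adjusted p = 0.146) and passed with the replicate block (0.025) and without KO replicate 2 (0.0405). KDM6B, a demethylase that removes the PRC2 mark, had 8.11 and 7.63 FPKM in WT and 4.41 and 4.97 FPKM in KO (log2 change -0.64, adjusted p = 0.0252). Its X-linked relative KDM6A was not called, and its groups overlapped (adjusted p = 0.371). Both the PHC2 and KDM6B calls were lost without WT replicate 1 (adjusted p = 0.169 and 0.192), WT replicate 2 (0.153 and 0.137) or KO replicate 1 (0.0584 and 0.0656), and with no filter (0.0697 and 0.0775).

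Genes of DNA replication and mitosis moved in the same direction as the 4 called members. Of 14 tested S phase genes 13 were higher and 0 lower (0 at an unadjusted p under 0.05, 0 by voom), with a median log2 change of 1.44. Over all tested genes 12.1% were higher and 11.1% were lower. The summed level of the S phase list was 84.5 to 110.0 FPKM in WT and 258.6 to 276.0 FPKM in KO. All 12 mitosis genes were higher, with a median of 3.01 and a summed level of 34.2 to 62.4 FPKM in WT and 417.7 to 454.5 FPKM in KO. CCNA2, the cyclin of S phase and G2, had 1.51 and 3.42 FPKM in WT and 26.1 and 22.5 FPKM in KO, 9.85-fold higher (adjusted p = 0.00436). The helicase subunit gene MCM6 was 3.58-fold higher (adjusted p = 0.0039). MKI67, a marker of cycling cells, had 1.97 and 4.45 FPKM in WT and 42.0 and 33.6 FPKM in KO, 11.8-fold higher (adjusted p = 0.0043). Without WT replicate 2 the folds were 16.1 for CCNA2 and 19.2 for MKI67. CDKN1A, the p21 inhibitor of cyclin-dependent kinases, had 472.3 and 468.6 FPKM in WT and 39.8 and 46.8 FPKM in KO, 10.9-fold lower (adjusted p = 0.00154). WT replicate 2 was the higher of the WT pair in MKI67 and CCNA2, and also in DNMT1, UHRF1, EZH2, DNMT3A, DNMT3B and EED. In the KO pair MKI67 and CCNA2 were higher in replicate 1, and those members in replicate 2. TET1 and TET3 were ordered as MKI67 was in both pairs. Each order rests on single libraries, and some gaps were small. EZH2, for example, had 4.30 and 4.49 FPKM in WT and 12.35 and 12.85 FPKM in KO. Other genes of the S phase and mitosis lists went both ways in the KO pair. MCM5, MCM7, E2F1, AURKB and CDC20 were among those higher in replicate 2, as those members were. MCM6, POLA1, RRM2, TOP2A and CENPF were among those higher in replicate 1. The log2 changes of DNMT1, DNMT3B, EZH2 and UHRF1, 0.92 to 1.83, lay around the S phase median and below the mitosis median. The part of the share of cycling cells in the change of each enzyme was not tested. CCNE1, the 1 tested S phase gene not called, had a log2 change of 0.26 (adjusted p = 0.26) and was named after its values were seen. With no filter, 2 of the S phase genes and 6 of the mitosis genes were called, and the MKI67 and CCNA2 calls were lost (adjusted p = 0.0507 and 0.052).

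**Figure D4:**
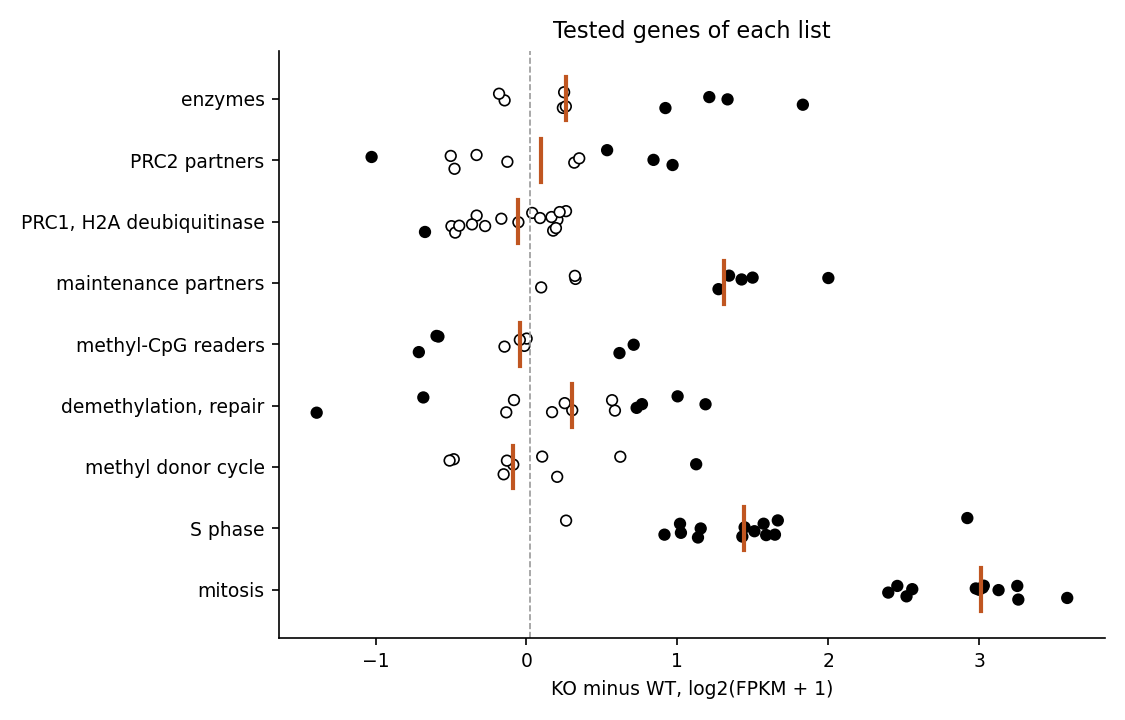
Change of KO over WT on the log2(FPKM + 1) scale for each tested gene of 9 lists (filled points passed an adjusted p of 0.05), with the median of each list as an orange bar and the median of all tested genes, 0.03, as a dashed line; vertical scatter within a list has no meaning. The S phase and mitosis medians lie at 1.44 and 3.01, the partners of maintenance methylation at 1.31 and the enzymes at 0.26.

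The genes nearest to DNMT1 and to EZH2 in pattern were sought among 6993 protein-coding genes with a mean of at least 5 FPKM, by Euclidean distance of centred log2(FPKM + 1) over the 4 libraries. Nearest to DNMT1 were DNAJC22, FADS1 and CCND3 (distances 0.0633 to 0.0819). Nearest to EZH2 were TCEAL8, TRA2B and LACTB2 (0.0701 to 0.0764). With 4 libraries such distances mostly reflect the size of the difference between the groups, and they are given as a description.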

How the data were processed

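Libraries of cells labelled HFL1, 2 WT and 2 KO, were read as paired ends on an Illumina NovaSeq, per the labels' protocols. Reads were aligned with HISAT2 2.0.5, and hg38 and mm10 are the builds named, per the submitters' processing notes. Each gene and library had 1 FPKM value, as deposited by the authors; which tool counted reads, and how libraries were scaled, is not given in the sources used here. Genes and coordinates matched GENCODE release 29 (GRCh38) for all 58735 entries. The product of FPKM and gene length fell on whole steps in every library (100% of values, tolerance 0.01), and these steps gave the read numbers.

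Differences were estimated with limma 3.58.1 in R 4.3.3 on log2(FPKM + 1), with an intensity-dependent prior, 2 residual degrees of freedom and no replicate block. The test covered 14100 genes that reached 1 FPKM in 2 or more libraries, and p-values were adjusted by Benjamini-Hochberg over all of them. The scale compresses changes of genes at low level; folds are quotients of mean FPKM. The fit was tested on simulated data, where the share of false calls was well above the nominal level, so adjusted p-values may be too small. Alternatives were other pseudocounts (0.1 and 0.5), other filters, total-read scaling, quantile normalization, voom on recovered reads, a replicate block, a robust prior and leaving out each library.

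The members and the gene lists were chosen with earlier results of these data known. Named genes were the 10 members, CALU, MKI67, CDKN1A, up to 4 tested genes per list (those called, by size of change, or the most abundant where fewer than 2 were called) and the 3 nearest genes of DNMT1, UHRF1 and EZH2; the result for UHRF1 is not reported here. EZH1, PCNA, HELLS, MBD6, PARP1, SMUG1 and CCNE1 were added after their values were seen. Where a gene overlaps another or has a near-identical copy, its reads may have been divided between them.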

Additional observations from a re-analysis of the deposited data

How the results depend on the processing

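No tested member changed direction under any of the 13 alternatives. The log2 change ranged from 0.77 to 1.07 for DNMT1, 1.11 to 1.79 for DNMT3B, 1.60 to 2.13 for UHRF1 and 1.29 to 1.52 for EZH2. The most influential choice was the filter on low values: without it, 183 genes were called higher and 193 lower in place of 1711 and 1572, and 1 member in place of 4. Leaving out each library in turn gave 505 to 1321 genes higher and 537 to 1260 lower, with 3 to 4 members higher and 0 lower. With the replicate number as a replicate block, 2968 genes were called higher and 2577 lower, and the member counts stayed at 4 and 0. The labels do not say that a number marks a shared culture or day; the deviations of WT replicate 1 and KO replicate 1 correlated at 0.411 over genes, and genes are no independent replicates. The cause of these shifts was not tested. Of 76 named genes none reversed. With no filter 42 lost their call. Calls were also lost when single libraries were left out, more so for a WT than for a KO library. No other setting took the call from more than 2 of the genes it tested. The filter of 1 FPKM in all 4 libraries tested 70 of the 76. It left out CXXC4, KIF20A, COL1A1, PAX2, KRT15 and CLDN4, which were called in the main fit and so lost their calls too. With 2 libraries per group, changes of the size of those of DNMT3A, TET2 and EED (0.24 to 0.26) had intervals that included 0. TET1, at 88 to 165 reads per library, did not reach the filter.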

Other observations

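Genes that DNA methylation or PRC2 commonly keeps silent were examined as 3 further lists. Of 18 germline genes known to be silenced by promoter methylation in somatic cells, 17 were below 1 FPKM in all 4 libraries and 10 were at 0. HORMAD1, a protein of meiotic chromosome axes, was the exception, with 5.40 and 5.43 FPKM in WT and 7.43 and 6.12 FPKM in KO (log2 change 0.27, adjusted p = 0.223 in limma). Of 24 developmental transcription factors held by PRC2 in many cell types, 13 were below 1 FPKM throughout and 10 were tested. Of the 10, 1 was higher and 2 were lower (median log2 change -0.19), against 12.1% and 11.1% of all tested genes. MSX2 had 9.05 and 8.52 FPKM in WT and 14.5 and 15.03 FPKM in KO (adjusted p = 0.0184). EN2 had 4.58 and 5.86 FPKM in WT and 1.36 and 1.99 FPKM in KO (adjusted p = 0.0122), and PAX2 was 3.58-fold lower (adjusted p = 0.04). PAX2 was below 1 FPKM in both KO libraries and entered the test through WT alone. The MSX2 call was lost without WT replicate 1 (adjusted p = 0.128) or WT replicate 2 (0.152), that of EN2 without WT replicate 2 (0.0542), and that of PAX2 when any 1 library was left out (0.0796 to 0.154), with a pseudocount of 0.1 (0.0579) or with quantile normalization (0.0598). With no filter on low values all 3 were lost (0.0578 to 0.0996).

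Of 18 imprinted genes, 9 were tested, 2 were higher, 2 were lower and 5 genes of the list were at 0 in all libraries. Over all tested genes 12.1% were higher and 11.1% were lower. The neighbours PEG10 and SGCE, expressed from the paternal allele, were higher: PEG10 had 13.8 and 15.02 FPKM in WT and 48.2 and 34.8 FPKM in KO (2.88-fold, adjusted p = 0.00815 in limma), and SGCE was 1.60-fold higher (adjusted p = 0.0416). MEG3, a maternally expressed long noncoding RNA, had 3.56 and 3.24 FPKM in WT and 1.38 and 1.45 FPKM in KO (adjusted p = 0.0137). PHLDA2, also maternally expressed, was 2.19-fold lower (adjusted p = 0.0202). The 5 other tested genes were not called and went in both directions. Among them SNRPN was 1.38-fold lower (adjusted p = 0.142 in limma) and CDKN1C 1.54-fold higher (adjusted p = 0.25). A pattern by parental allele was not tested. The SGCE call was lost when any 1 library was left out (adjusted p = 0.0902 to 0.239) or with total-read scaling (0.0535), and those of MEG3 and PHLDA2 without WT replicate 1 (0.0919 and 0.101) or WT replicate 2 (0.0615 and 0.0637). With no filter all 4 calls were lost (0.0571 to 0.109). Allele of origin was not measured, and neither was DNA methylation or any histone mark.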
